A study of Mus musculus with 12 samples.

Results

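The 41 genes described here serve the copying of DNA and the division of the cell. They were listed by name, 18 as replication genes and 23 as mitosis genes. A gene counted as measured where at least 1 of its probes had a detection score above 0.95, meaning a signal above background, on at least 3 of the 12 arrays. The probe with the highest mean then stood for the gene. By this rule 37 of the 41 genes were measured, all 18 replication genes and 19 of the 23 mitosis genes. Of the 25361 genes on the array, 11743 passed the same filter.

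Transcript levels were measured on Illumina Mouse WG6V2 BeadChips in Lineage-Kit+CD45.2+ cells, a fraction of bone marrow enriched for haematopoietic stem and progenitor cells (HSPC). The cells were sorted from the leg bones of chimeric mice 12 to 16 weeks after the mice had been given fetal liver cells of embryonic day 13.5, and all samples are labelled C57BL/6. The 12 arrays form 4 groups of 3. Casp9 KO lacks caspase-9, the initiator protease that is activated after mitochondria release cytochrome c, and WT experiment 1 is its wild-type control. Bak/Bax DKO lacks Bak and Bax, the proteins that open the outer mitochondrial membrane, and WT experiment 2 is its control. Each experiment was hybridized on a beadchip of its own. In every group the blood cells grew from a transplant, so the knockout is that of the donor cells. The submitters call the samples independent without saying whether animals were pooled, and p-values measure the spread between these samples.

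A dividing cell first licenses its replication origins. Cdc6 and Cdt1 load the MCM helicase, cyclin E and its kinase start synthesis, and enzymes such as ribonucleotide reductase supply the nucleotides. Mitosis then needs cyclin B with Cdk1, the Aurora and Polo kinases, the spindle checkpoint and the kinesins that build and elongate the spindle. Replication genes are known targets of E2F factors, which bind near the transcription start, whereas many mitosis genes carry a cell cycle homology region (CHR) bound by the MuvB complexes, often beside a CCAAT box bound by NF-Y. Transcripts of both sets are low in resting stem cells and rise in cycling progenitors.

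The promoter sequences of the listed genes hold these motifs in different shares. Windows of 250 bases before to 50 bases after the annotated start were taken from RefSeq (GRCm38.p6) and matched 34 of the 41 genes by symbol. They were searched on both strands for the E2F motifs TTTCCCGC and TTTGGCGC, the CHR motifs TTTGAA and TTCGAA, and the CCAAT box. No searched motif contains another. An E2F motif was in 6 of 15 replication windows (40%), namely those of Mcm3, Mcm5, Mcm6, Mcm7, Cdc6 and Cdt1, in 0 of 19 mitosis windows, and in 1.80% of the windows of 27025 genes. A CHR motif was in 2 of 15 replication windows (13.3%), 14 of 19 mitosis windows (73.7%) and 21.7% of all genes. The CCAAT box was in 9 of 15 (60%) and 16 of 19 (84.2%), against 41.1% of all genes. These are matches of letters, and binding was not measured.

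**Figure D1:**
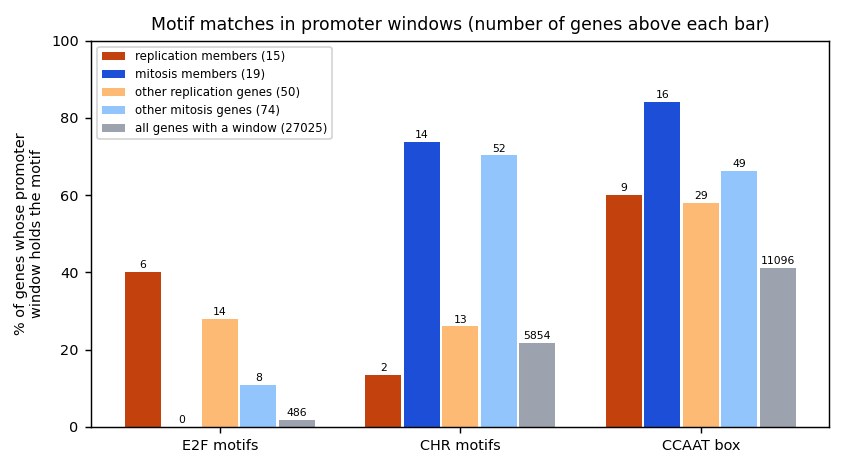
Share of genes whose promoter window held an E2F motif, a CHR motif or a CCAAT box, in per cent (bars), with the number of genes above each bar and the number of windows in the key. E2F motifs were in 6 of 15 windows of the replication genes and CHR motifs in 14 of 19 windows of the mitosis genes; bars of the other replication and mitosis genes (28% and 10.8% for E2F, 26% and 70.3% for CHR) and of all genes stand beside them.

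The sequences below give the 200 bases before the start, 5′ to 3′, of the 3 genes of each list with the smallest p in any knockout comparison whose window held a motif before the start. Mcm6 and Cdk1 were added after the motifs had been seen, because Mcm6 holds a pair of E2F motifs and Cdk1 a pair of CHR motifs. Capitals mark the motifs: TTTGGCGC for E2F, TTTGAA for CHR, and CCAAT or, on the opposite strand, ATTGG.
Mcm3 promoter, chr1:20820313-20820512 (- strand): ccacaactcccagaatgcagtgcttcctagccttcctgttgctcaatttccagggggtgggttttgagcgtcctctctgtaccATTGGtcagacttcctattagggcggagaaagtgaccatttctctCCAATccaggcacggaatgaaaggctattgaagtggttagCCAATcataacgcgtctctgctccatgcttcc
Mcm2 promoter, chr6:88898781-88898980 (- strand): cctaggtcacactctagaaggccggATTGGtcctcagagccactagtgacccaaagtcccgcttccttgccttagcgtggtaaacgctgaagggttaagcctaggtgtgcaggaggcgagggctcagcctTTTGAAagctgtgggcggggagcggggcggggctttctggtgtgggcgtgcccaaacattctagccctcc
Rrm1 promoter, chr7:102441495-102441694 (+ strand): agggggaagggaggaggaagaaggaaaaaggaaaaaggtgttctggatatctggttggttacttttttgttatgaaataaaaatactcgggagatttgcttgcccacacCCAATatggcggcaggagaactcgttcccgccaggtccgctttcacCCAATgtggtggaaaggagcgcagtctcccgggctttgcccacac
Mki67 promoter, chr7:135716380-135716579 (- strand): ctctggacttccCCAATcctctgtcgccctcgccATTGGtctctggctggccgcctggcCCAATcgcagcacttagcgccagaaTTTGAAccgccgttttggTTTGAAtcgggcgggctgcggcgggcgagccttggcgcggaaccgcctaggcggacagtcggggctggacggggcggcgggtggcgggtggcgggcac
Ttk promoter, chr9:83834489-83834688 (+ strand): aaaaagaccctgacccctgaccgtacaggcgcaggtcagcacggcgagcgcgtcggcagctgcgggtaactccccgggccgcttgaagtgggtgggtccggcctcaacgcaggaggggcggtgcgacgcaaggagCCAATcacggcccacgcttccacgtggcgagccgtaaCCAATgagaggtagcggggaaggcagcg
Aurka promoter, chr2:172370571-172370770 (- strand): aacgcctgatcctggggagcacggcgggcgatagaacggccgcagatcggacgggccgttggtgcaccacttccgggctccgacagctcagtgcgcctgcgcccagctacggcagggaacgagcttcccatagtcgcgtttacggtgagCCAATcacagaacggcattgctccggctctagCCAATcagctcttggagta
Mcm6 promoter, chr1:128359706-128359905 (- strand): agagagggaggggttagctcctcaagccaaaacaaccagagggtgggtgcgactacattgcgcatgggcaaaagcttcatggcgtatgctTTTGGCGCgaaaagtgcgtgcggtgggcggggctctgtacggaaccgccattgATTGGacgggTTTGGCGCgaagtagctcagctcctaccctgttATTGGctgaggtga
Cdk1 promoter, chr10:69352913-69353112 (- strand): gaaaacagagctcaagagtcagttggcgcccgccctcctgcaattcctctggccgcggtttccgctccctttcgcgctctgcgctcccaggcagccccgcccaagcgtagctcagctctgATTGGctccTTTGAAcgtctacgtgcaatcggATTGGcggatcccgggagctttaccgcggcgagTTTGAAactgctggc

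Counted from the start, the E2F motifs of Mcm6 began at -110 and -47. In Cdk1 the CHR motifs began at -71 and -15, with CCAAT boxes on the opposite strand at -80 and -48. Mki67 held CHR motifs at -116 and -98 and 3 CCAAT boxes farther upstream, and Mcm2 a CHR motif at -70. The stretches of Mcm3, Rrm1, Ttk and Aurka held CCAAT boxes and no other searched motif. The E2F motifs of Mcm3 (TTTCCCGC from base 20 and TTTGGCGC from base 39 after the start) lie in the window outside these 200 bases. So do the CHR motifs of Ttk and Aurka counted above.

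Of the 12 arrays, 1 stood apart. Mean bead intensity was 234.5 on Bak/Bax DKO replicate 2 and 321.5 to 522.0 on the other 11. Its values correlated at 0.856 to 0.869 with those of the others across probes. Of 8660 probes that were bright on the other 11 arrays (log2 value above 7 on each), 931 (10.8%) were more than 3 log2 units below all of them on this array, against at most 1 probe on any other array. Results are therefore given with all 12 arrays and without Bak/Bax DKO replicate 2. The targeted genes followed the labels. Casp9 had log2 values of 8.02, 8.99 and 8.83 in WT experiment 1 against 5.37, 5.24 and 5.48 in its knockout. Bak1 was above background on 0 of 3 Bak/Bax DKO arrays and on all 3 of WT experiment 2, and Bax fell by 1.82 (limma adjusted p = 0.000434). Kit, the receptor used in the sort, was above background on all 12 arrays, and of the 10 markers listed for these cells Flt3 alone was not measured.

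Most of the replication and mitosis genes were well above background in all 4 groups. The probe used was detected on all 12 arrays for 31 of the 37 measured genes, on 11 arrays for 5 and on 9 for Ccna2. The 4 genes not measured were Ccnb2 (cyclin B2), the checkpoint kinase gene Bub1, the kinetochore kinesin gene Cenpe and the cytokinesis kinesin gene Kif20a. None of their probes reached the detection rule, and no level is given for them. The wild-type arrays of one experiment lay close together. The median SD over the 37 genes was 0.10 in WT experiment 1, 0.13 in Casp9 KO, 0.19 in WT experiment 2 and 0.34 in Bak/Bax DKO on the log2 scale (n = 3 each), and over all genes tested it was 0.13, 0.17, 0.16 and 0.35.

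**Figure D2:**
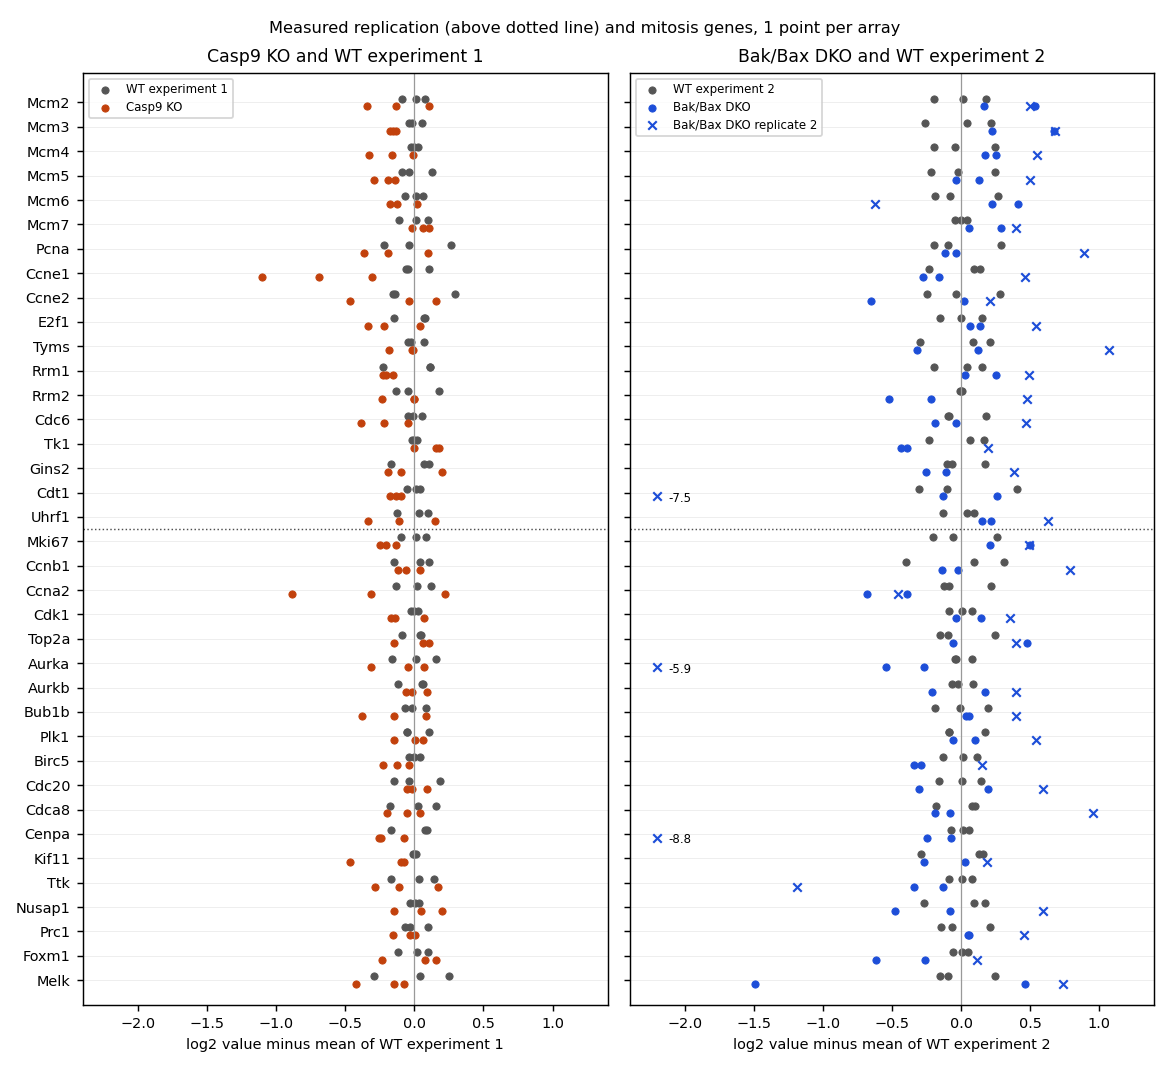
Log2 value of each measured gene on each array minus the mean of the wild-type group of its experiment (horizontal axis), 1 point per array; replication genes are above the dotted line and mitosis genes below it. Casp9 KO points lie mostly just left of 0, and Bak/Bax DKO replicate 2 (crosses) lies right of its group for most genes but far to the left for Cdt1, Aurka and Cenpa, which are drawn at the edge with their values.

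The first comparison asks how the loss of caspase-9 bears on these genes. Levels in Casp9 KO were slightly below wild type for most of them, by amounts that did not pass the test. The median log2 change was -0.13 over the 18 replication genes and -0.08 over the 19 mitosis genes, against -0.03 over all genes tested. Of the replication genes 16 were below 0 and of the mitosis genes 15, as were 6442 of the 11743 genes tested (54.9%). With limma 0 of 37 were called at an adjusted p under 0.05, where 174 of 11743 genes (1.48%) were, and 1 had an unadjusted p under 0.05, Ccne1, as 10.9% of all genes did. A count of 0 among 37 is near that background.

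Ccne1 encodes cyclin E1, which activates Cdk2 at the start of DNA synthesis. Its log2 values were 8.90, 8.88 and 9.05 in WT experiment 1 against 8.64, 8.26 and 7.84 in the knockout. All 3 knockout arrays were lower than every wild-type array, and they spread over more than the wild-type arrays did. The group means were 8.94 ± 0.09 and 8.25 ± 0.40 (SD, n = 3), a change of -0.70 (SE 0.23, limma adjusted p = 0.242). Without Bak/Bax DKO replicate 2, which belongs to the other experiment but enters the shared estimate of the spread, the change was the same, its SE was 0.18, and Ccne1 fell (adjusted p = 0.0357). In that fit 1 of 37 genes was called, where 5.77% of all genes were.

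The changes of the licensing and helicase genes were smaller on the probes used. Mcm5, a helicase subunit gene, was at 12.80, 13.02 and 12.86 in wild type and at 12.60, 12.70 and 12.76 in Casp9 KO, and the groups did not overlap (-0.21, adjusted p = 0.833). Cdc6, the loader of the helicase, was at 10.19, 10.23 and 10.29 and at 10.02, 10.19 and 9.85, with the second knockout array at the level of the lowest wild-type array (-0.22, adjusted p = 0.840). The changes of the other MCM genes were -0.12 for Mcm2, -0.15 for Mcm3, -0.17 for Mcm4, -0.09 for Mcm6 and 0.05 for Mcm7. Mcm3 was lower on all 3 knockout arrays (10.39, 10.38 and 10.42) than on the wild-type arrays (10.53, 10.61 and 10.51). Cdt1, the other loader, was at -0.14 and also without overlap. Gins2, a subunit of the active helicase, was at -0.03. Further passing probes of the licensing and helicase genes ranged from -0.34 (Mcm4) to 0.29 (Mcm6).

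Changes of the nucleotide supply genes were of the same small size on the probes used. Rrm1, the large subunit of ribonucleotide reductase, was at 11.67, 11.68 and 11.34 in wild type and at 11.34, 11.41 and 11.36 in the knockout, so 1 wild-type array lay among the knockout arrays (-0.20, adjusted p = 0.836). Its partner Rrm2 was at -0.08, the thymidylate synthase gene Tyms at -0.07 and the thymidine kinase gene Tk1 at 0.11. Further passing probes of these genes ranged from -0.38 to 0.18, both of Tyms. The sliding clamp gene Pcna was at -0.15, E2f1 at -0.17, Uhrf1, which guides maintenance methylation at the fork, at -0.10, and Ccne2 (cyclin E2) at -0.12. None of these passed the test. For 16 of the 18 replication genes the 95% interval of the change lay within 1 log2 unit of 0, the exceptions being Ccne1 and Cdt1.

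Among the mitosis genes, Mki67, whose product Ki-67 coats mitotic chromosomes and marks cycling cells, was at 11.08, 11.01 and 10.90 in wild type and at 10.79, 10.87 and 10.75 in Casp9 KO. The 3 knockout arrays were the lower ones (-0.20, SE 0.15, adjusted p = 0.798). Kif11, a kinesin that pushes the spindle poles apart, was at 9.70, 9.72 and 9.71 and at 9.24, 9.61 and 9.64, again without overlap (-0.21, adjusted p = 0.840). Ccna2 (cyclin A2) was near background, at 5.75, 5.60 and 5.85 and at 5.95, 5.42 and 4.84. Its knockout arrays lay on both sides of wild type, and the last was not above background (-0.33, adjusted p = 0.790). The checkpoint gene Bub1b was at 11.20, 11.30 and 11.15 and at 10.84, 11.07 and 11.30, with overlap (-0.15, adjusted p = 0.937). On the probes used, the other 15 mitosis genes were between -0.22 (Melk) and 0.03 (Nusap1), with Cdk1 at -0.08, Top2a at 0.01, Plk1 at -0.03 and Ccnb1 at -0.05. Further passing probes of these genes ranged more widely, from -0.35 (Cdc20) to 0.55 (Top2a).

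Of the 37 genes, 6 had Casp9 KO arrays all below the WT experiment 1 arrays (Mcm3, Mcm5, Ccne1, Cdt1, Mki67 and Kif11) and 0 had them all above. Over all genes tested the knockout arrays were all lower for 14.1% and all higher for 10.9%, so the share on the lower side was near the background. The small shift was seen on each knockout array: the median difference of the replication genes from the wild-type mean was -0.20, -0.14 and -0.10 on replicates 1 to 3, and that of all genes -0.04, -0.01 and -0.02. In RNA from a sorted bulk, fewer cycling cells and less RNA per cell cannot be told apart.

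Markers of other blood cells moved with this comparison. Over all genes 1.48% were called, or 5.77% without Bak/Bax DKO replicate 2, and 54.9% were below 0. The summed level of 19 measured erythroid markers of 20 listed (linear scale; Epb42 was not measured) was 48195 to 52614 on the WT experiment 1 arrays and 30791 to 40185 on the Casp9 KO arrays. All 19 were lower in the knockout and 3 of them fell, or 10 without Bak/Bax DKO replicate 2. That of 13 of 16 megakaryocyte markers was 3516 to 3712 and 2530 to 2701, with 1 fallen, or 3 without that array. The sums of 15 of 16 monocyte and dendritic cell markers were 12755 to 14894 and 16179 to 20586, with 2 risen (5 without that array), and those of 10 of 12 mast cell and basophil markers 10456 to 11580 and 12976 to 16647, with 3 risen. The sums of 5 of 12 T and NK cell markers were 4877 to 5918 and 6943 to 7228, with 0 called by limma (1 at an unadjusted p under 0.05), or 1 risen without that array. These 5 went both ways, 3 above 0 and 2 below, from -0.41 (Il7r) to 0.97 (Thy1). B cell sums (10 of 12 markers) overlapped, at 1223 to 1535 and 1236 to 1312, with 1 fallen, and so did neutrophil sums (15 of 16), at 73490 to 86548 and 78907 to 91536, with 1 risen. The part of these shifts in the levels of the replication and mitosis genes was not tested.

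**Figure D3:**
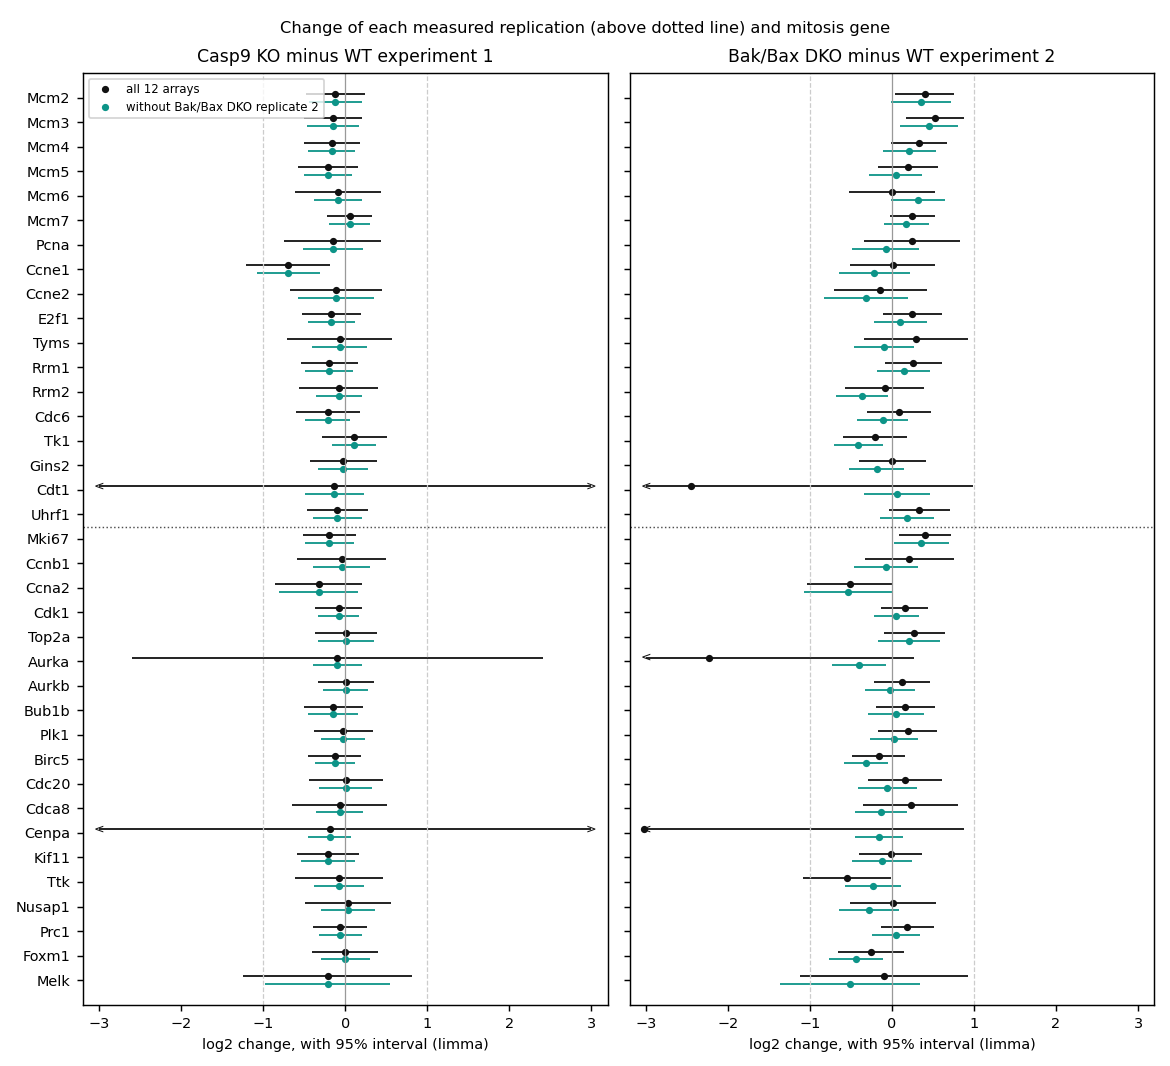
Log2 change of each measured gene with its 95% interval from limma, for both knockouts, with all 12 arrays (black) and without Bak/Bax DKO replicate 2 (green); replication genes are above the dotted line, dashed lines mark a log2 change of 1 in each direction, and arrowheads mark intervals that go on past the axis. With all arrays the intervals of Cdt1, Aurka and Cenpa are the widest; without the array they shrink to the size of the others, and Ccne1 stands apart on the left in Casp9 KO.

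The second comparison asks the same of the loss of Bak and Bax. With all 12 arrays the replication genes had a median log2 change of 0.22 and the mitosis genes of 0.12, against 0.11 over all genes. With limma 0 of 37 were called, where 255 of 11743 genes (2.17%) were, and 4 had an unadjusted p under 0.05 (16.4% of all genes): Mcm3, Mcm2, Mki67 and Ttk. Without Bak/Bax DKO replicate 2 the medians were 0.05 and -0.12, against 0.01 over all genes. Then 0 of 37 were called, where 4.22% of all genes were, and 8 had an unadjusted p under 0.05 (17.3% of all genes). Thus the higher median of the replication genes rested on that array, and the median of the mitosis genes was on the other side of 0 without it.

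The MCM genes, which encode the replicative helicase, had changes at or above 0 on the probes used, with and without that array. Over all genes 4318 of 11743 were below 0 with all arrays. Some further passing probes were below 0: one of Mcm7 was at -0.73 and -1.25 with and without that array, and one of Mcm6, near background on that array, at -2.60 and -0.08. One of Mcm4 was at 0.03 and -0.23. The other probes of Mcm6 were at 0.58 and 0.34, and at 0.50 and -0.22 without it. Mcm3 was at 10.41, 9.93 and 10.23 in WT experiment 2 and at 10.42, 10.87 and 10.87 in Bak/Bax DKO (replicates 1 to 3). The groups did not overlap, although their nearest arrays nearly touched. The means were 10.19 ± 0.24 and 10.72 ± 0.26 (SD, n = 3), a change of 0.53 (SE 0.16, limma adjusted p = 0.135), and 0.45 without replicate 2 (adjusted p = 0.168). The call appeared when replicate 1 was left out (0.68, adjusted p = 0.0424), and with no other array of the 12 left out in turn. A further Mcm3 probe was at 0.35.

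Mcm2 was at 11.09, 10.72 and 10.93 in wild type and at 11.08, 11.41 and 11.45 in the knockout, where replicate 1 lay within wild type (0.40, SE 0.16, adjusted p = 0.249). Mcm4 was at 12.97, 12.53 and 12.68 and at 12.98, 13.28 and 12.90, with replicate 3 within wild type (0.33, adjusted p = 0.326). Mcm7 was at 10.94, 10.90 and 10.85 and at 10.96, 11.30 and 11.18, without overlap (0.25, adjusted p = 0.346). Mcm5 was at 0.20 and Mcm6 at 0.00. Without replicate 2 the changes were 0.35 for Mcm2, 0.21 for Mcm4, 0.05 for Mcm5, 0.32 for Mcm6 and 0.17 for Mcm7. All were above 0, and 0 of the 6 passed the test in either fit with limma (2 and 1 at an unadjusted p under 0.05).

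**Figure D4:**
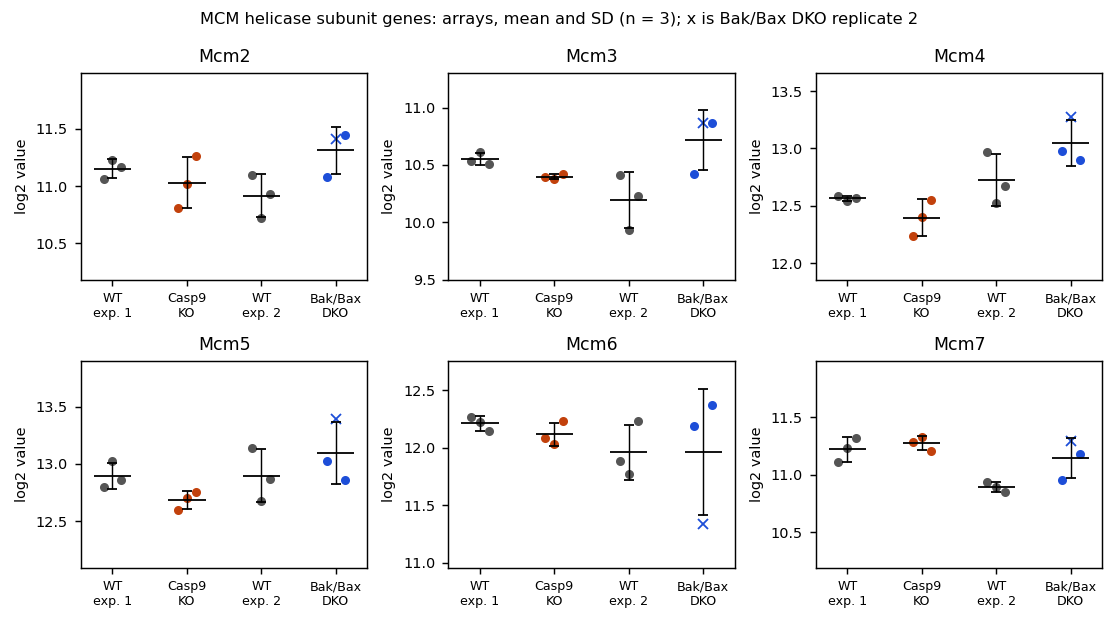
Log2 value of the probe used for each MCM helicase gene on every array (points), with the mean and SD of each group of 3 (black); the cross is Bak/Bax DKO replicate 2, and every panel spans the same range. Mcm3 shows Bak/Bax DKO arrays above those of WT experiment 2 and Casp9 KO arrays below those of WT experiment 1, and for Mcm6 the cross lies below all other arrays.

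Among the other replication genes the signs were mixed on the probes used. The thymidine kinase gene Tk1 was at -0.21, and at -0.41 without replicate 2 (adjusted p = 0.134). Rrm2 was at -0.09 and -0.37, Ccne2 at -0.14 and -0.32, and Gins2 at 0.00 and -0.18. Pcna was at 0.24 and -0.08 and Tyms at 0.29 and -0.10, so the sign of both turned with that array. Ccne1, which was lower in Casp9 KO, was at 0.01 and -0.22. Uhrf1 was at 0.33 and 0.18, Rrm1 at 0.26 and 0.14, E2f1 at 0.25 and 0.10, and Cdc6 at 0.08 and -0.11. Not one of these passed the test.

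Mki67 had the smallest p of the mitosis genes. It was at 11.11, 10.65 and 10.79 in WT experiment 2 and at 11.06, 11.34 and 11.35 in Bak/Bax DKO, where replicate 1 lay within wild type (0.40, SE 0.15, adjusted p = 0.202; 0.35 without replicate 2). Ccna2 went the other way, at 5.21, 5.52 and 5.18 and at 4.62, 4.85 and 4.91. All knockout arrays were lower, and 1 of the 3 was above background, so the difference is in part one from background values (-0.51, SE 0.24, adjusted p = 0.319; -0.54 without replicate 2). The checkpoint kinase gene Ttk was at 5.58, 5.49 and 5.65 and at 5.44, 4.38 and 5.23. Its knockout arrays were lower too, replicate 2 being below background (-0.55, adjusted p = 0.290; -0.23 without replicate 2). Without that array Foxm1, a factor that drives mitosis genes, was at -0.44 (adjusted p = 0.152), Birc5 (survivin) at -0.32 (adjusted p = 0.213) and Aurka at -0.40 (adjusted p = 0.189). On the probes used, the others then lay between -0.52 (Melk) and 0.21 (Top2a). Melk was at 6.25, 5.90 and 5.84 in wild type. It was at 6.46 on knockout replicate 1, above wild type, and at 4.50, near background, on replicate 3. A further passing probe of Top2a was at -0.34, of the other sign, and one of Ccnb1 at -0.76.

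Groups that did not overlap numbered 6 of 37 with all arrays. Mcm3, Mcm7 and Uhrf1 were higher and Ccna2, Aurka and Ttk lower, where 18.6% of all genes did not overlap, 13.3% higher and 5.27% lower. Without replicate 2, 11 of 37 did not overlap, the further genes being Rrm2, Tk1, Gins2, Birc5 and Foxm1, all lower. Of all genes 30.7% then did not overlap, 16.6% higher and 14.1% lower. For 17 of 18 replication and 14 of 19 mitosis genes the 95% interval with all arrays lay within 1 log2 unit of 0. The exceptions were Cdt1, Ccna2, Aurka, Cenpa, Ttk and Melk.

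In this experiment too, markers moved with the genotype. Over all genes 2.17% were called, or 4.22% without Bak/Bax DKO replicate 2, and 36.8% were below 0 with all arrays. The summed level of 15 of 16 neutrophil markers was 88951 to 93696 in WT experiment 2 and 53441 to 74454 in Bak/Bax DKO, with 1 fallen, or 8 without replicate 2. That of 13 of 16 megakaryocyte markers was 2159 to 3331 and 4088 to 5896, with 5 risen. That of 9 of 10 markers of the sorted cells was 7880 to 9568 and 12357 to 16553, with 3 risen, Kit among them (0.70, limma adjusted p = 0.0493). Of these 9 markers 6 were above 0 and 3 below. Mast cell and basophil sums (10 of 12 markers) were 11097 to 14019 and 14664 to 16046, with 3 risen. Of these 10 markers 7 were above 0 and 3 below, the lowest being Hdc at -2.54. Gata2, which rose, is on both lists and is counted in each. B cell sums (10 of 12) were 1328 to 1862 and 824 to 1125, with all 10 lower and 3 fallen. T and NK cell sums (5 of 12) were 4505 to 5555 and 1485 to 3588, with 1 fallen, or 2 without replicate 2. These 5 markers went both ways, 3 above 0 and 2 below, from -1.45 (Nkg7) to 1.17 (Klrd1). Erythroid sums (19 of 20) were 49597 to 60425 and 43982 to 49415, with 0 called by limma (2 at an unadjusted p under 0.05). Of these 19 markers 9 were above 0 and 10 below. Monocyte and dendritic cell sums (15 of 16) overlapped, at 16530 to 19525 and 13978 to 16990, with 2 risen and 2 fallen. These ranges include replicate 2, which set 1 end of each knockout range but the erythroid one. Its neutrophil and megakaryocyte sums were the lowest of the 3 knockout arrays. Its sums of the sorted cell, mast cell, B cell, T and NK cell and monocyte markers were the highest. The part of these shifts in the levels described here was not tested.

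Values on Bak/Bax DKO replicate 2 departed from the other arrays in both directions. It was the highest of the 12 arrays for 12 of the 18 replication genes and 9 of the 19 mitosis genes, and for 45.5% of all genes. Its median difference from the WT experiment 2 mean was 0.49 and 0.40 in these lists and 0.38 over all genes. Replicates 1 and 3 were at 0.04 and 0.01 for replication genes, at -0.08 and -0.19 for mitosis genes and at 0.01 each over all genes. The 3 WT experiment 2 arrays were at 0.07, -0.19 and 0.04 for replication genes, a spread wider than the shifts on replicates 1 and 3. For mitosis genes they were at 0.09, -0.06 and -0.01, and replicates 1 and 3 were below all of them.

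Some probes were near background on the same array. Of the 56 bright probes of the measured genes, 5 (8.93%) were more than 3 log2 units below the other 11 arrays, near the 10.8% of all probes. They were chosen for description after these values had been seen. The probe used for Cenpa, the centromeric histone, was at 4.63 against 12.89 or more on the other arrays, that for Cdt1 at 4.22 against 11.23 or more, and that for Aurka at 4.23 against 9.58 or more. A second probe of Mcm6 (4.31 against at least 11.72) and of Ccnb1 (4.25 against at least 10.61) did the same. Yet other probes of these genes stayed bright there: the probe used for Mcm6 was at 11.34 and a further one at 12.39, and that used for Ccnb1 at 11.23. Bead intensities of the 5 probes were 54.2 to 93.5 on this array and 853.7 to 11833 elsewhere.

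**Figure D5:**
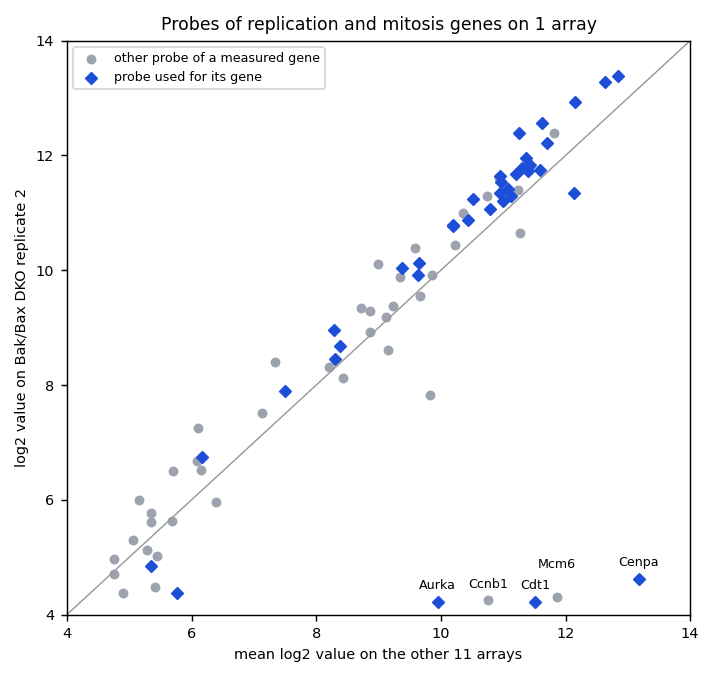
Log2 value of each passing probe of the measured genes on Bak/Bax DKO replicate 2 (vertical axis) against its mean on the other 11 arrays (horizontal axis); diamonds are the probes used, grey points further probes of the same genes, and the line marks equal values. Most probes lie along the line or above it, and 5 probes, of Aurka, Ccnb1, Cdt1, Mcm6 and Cenpa, lie near the floor.

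These probes set the averages of their genes. With all arrays the Bak/Bax DKO changes of Cenpa, Cdt1 and Aurka were -3.03, -2.45 and -2.24, none past the test (adjusted p = 0.407, 0.418 and 0.359). Without replicate 2 they were -0.16, 0.06 and -0.40. The same array widened the interval of these genes in Casp9 KO, since the fit shares its spread over the groups. The change of Cdt1 there, -0.14, had a 95% interval of -3.57 to 3.30 with all arrays and of -0.50 to 0.23 without it.

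The third comparison asks whether the knockout effects differ, by subtracting the Casp9 KO effect from the Bak/Bax DKO effect. With limma 0 of 37 genes were called, where 245 of 11743 (2.09%) were, and 4 had an unadjusted p under 0.05 (16.6% of all genes): Mcm3, Mki67, Mcm2 and Mcm4. The median difference was 0.38 over the replication genes and 0.15 over the mitosis genes, against 0.12 over all genes. Without Bak/Bax DKO replicate 2 these were 0.23, -0.03 and 0.04. In that fit 0 of 37 were called, where 7.26% of all genes were, and 3 had an unadjusted p under 0.05 (21.7% of all genes), Tk1, Mcm3 and Mki67.

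Mcm3 had the smallest p, with a difference of effects of 0.68 (SE 0.23, limma adjusted p = 0.157), and 0.60 without that array (adjusted p = 0.125). It was below wild type on all 3 Casp9 KO arrays and above it on all 3 Bak/Bax DKO arrays. For Mki67 the difference was 0.60 (SE 0.21, adjusted p = 0.171) and 0.55, for Mcm2 0.52 (adjusted p = 0.283) and 0.47, and for Mcm4 0.49 (adjusted p = 0.289) and 0.38. Ccne1 was at 0.71 (SE 0.33, adjusted p = 0.314) and 0.48. For Bub1b, Ttk and Aurka, the next mitosis genes by p, it was 0.31, -0.48 and -2.14, and 0.19, -0.16 and -0.31 without the array. Tk1 was at -0.32 and -0.52 (adjusted p = 0.118 without the array).

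The wild-type groups of both experiments differed for some of these genes by as much as the knockouts did. Experiment and beadchip cannot be told apart in this comparison. With limma 0 of 37 were called in WT experiment 2 minus WT experiment 1, where 855 of 11743 genes (7.28%) were, and 5 had an unadjusted p under 0.05 (21.4% of all genes). Ccne1 was at 8.31, 7.99 and 8.35 in WT experiment 2, a change of -0.73 from WT experiment 1 that brought it near its level in Casp9 KO (adjusted p = 0.0968). Mcm7 was at -0.33 (adjusted p = 0.156), Bub1b at -0.40 (adjusted p = 0.185), Mcm3 at -0.36 (adjusted p = 0.224) and Tk1 at 0.42 (adjusted p = 0.208). In the fit over 11 arrays that leaves out Bak/Bax DKO replicate 2, Ccne1 (adjusted p = 0.0123) and Ttk (-0.48, adjusted p = 0.0286) were lower and Tk1 higher (adjusted p = 0.0330), 3 of 37 where 19.9% of all genes were called.

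Further genes of both pathways were taken from lists that do not overlap with the 41: 61 replication genes, of which 56 were measured, and 90 mitosis genes, of which 81 were. In Casp9 KO limma called 0 of the 56 and 0 of the 81, with 2 and 4 at an unadjusted p under 0.05 and medians of -0.09 and -0.02. In Bak/Bax DKO 1 of 56 fell and 0 of 81 were called (5 and 4 at an unadjusted p under 0.05), with medians of -0.01 and -0.07. In the difference of effects 1 of 56 and 0 of 81 were called (3 and 7 at an unadjusted p under 0.05). Over all genes 1.48%, 2.17% and 2.09% were called in these comparisons. Without Bak/Bax DKO replicate 2 the counts were 1 and 1 in Casp9 KO, 1 and 0 in Bak/Bax DKO and 1 and 3 in the difference, where 5.77%, 4.22% and 7.26% of all genes were called. The medians in Bak/Bax DKO were then -0.08 and -0.16.

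The call in Bak/Bax DKO was on E2f2, an E2F factor gene. It was at 9.47, 9.25 and 8.997 in WT experiment 2 and at 8.07, 8.62 and 8.45 in Bak/Bax DKO, without overlap, and fell by 0.86 (SE 0.19, limma adjusted p = 0.0461). In Casp9 KO it was at 7.68, 7.53 and 8.04 against 7.42, 7.38 and 7.20 in WT experiment 1. Those groups did not overlap either, and the change of 0.42 did not pass the test (adjusted p = 0.464). The difference of effects was -1.28 (SE 0.27, adjusted p = 0.0406), and -1.40 without replicate 2 (adjusted p = 0.00477). E2f2 also differed between the wild-type groups, by 1.91 (adjusted p = 0.000617). Left out in turn, 10 of the 12 arrays ended each of these calls, with adjusted p from 0.0102 to 0.147 for Bak/Bax DKO and from 0.00477 to 0.108 for the difference. The calls also ended with no detection filter (adjusted p = 0.0676 and 0.0553), and the call in Bak/Bax DKO with only the 6 arrays of that comparison (0.276).

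The calls that came without Bak/Bax DKO replicate 2 were these. In Casp9 KO, Dut, which removes dUTP from the nucleotide pool, fell (-0.47, limma adjusted p = 0.0330, and 0.235 with all arrays). Smc2, a condensin subunit gene, was at 4.92, 4.59 and 5.07 in WT experiment 1, where 1 of 3 arrays was above background, and at 7.01, 5.23 and 6.48 in Casp9 KO. All 3 knockout arrays were higher, and the change of 1.38 was called without that array (adjusted p = 0.0297, and 0.127 with it). Since the wild-type level is mostly background, the sizes given for Smc2 in experiment 1 and in the difference of effects are not measured folds. In the difference of effects Smc2 (-2.19, adjusted p = 0.0209) and the condensin gene Ncapg (-0.94, adjusted p = 0.0374) were lower, and the kinetochore gene Cenpf was higher (0.81, adjusted p = 0.0358). Between the wild-type groups 3 of the 56 and 5 of the 81 further genes were called, where 7.28% of all genes were, and 9 and 10 without the array, where 19.9% were. Smc2 was among those called, 3.77 higher in WT experiment 2 (limma adjusted p = 0.000617 with all arrays). That size also rests on the background level in WT experiment 1, and experiment and beadchip cannot be told apart there.

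Where no further gene was called, those with the smallest p were these. In Casp9 KO the ubiquitin-conjugating enzyme gene Ube2c, which acts with the anaphase-promoting complex, was at 6.34, 5.95 and 5.97 against 5.48, 5.54 and 5.92 in wild type. The knockout arrays were the higher ones (0.44, adjusted p = 0.327). E2f7, a repressor of E2F targets, was above background on 3 of 3 WT experiment 1 arrays (5.23, 5.01 and 5.09) and on 0 of 3 Casp9 KO arrays (4.83, 4.86 and 4.60), so no fold is given. In Bak/Bax DKO the inhibitory Cdk1 kinase gene Pkmyt1 was at 6.54, 6.40 and 6.73 against 7.14, 6.95 and 7.03 in WT experiment 2. Its knockout arrays were all lower (-0.48, adjusted p = 0.138), and the difference of effects was -0.69 (adjusted p = 0.125). The cytokinesis kinase gene Cit was at 4.94, 4.42 and 5.31 against 5.92, 5.58 and 5.72, again without overlap, and replicate 2 of the knockout was below background (-0.85, adjusted p = 0.0704, and 0.0556 without that array).

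Probes of one gene did not always move alike. Of the measured genes, 23 had several passing probes. All probes of a gene had the same sign for 13 of the 23 in Casp9 KO, for 10 in Bak/Bax DKO and for 11 there without replicate 2. The probes used for Rrm1, Rrm2 and Kif11 carry a mark in the authors' filter column, and Kif11 has no other probe. Per the files, the probe used for Ccne1 lies at chr7:38883418-38883467, that for Mcm3 at chr1:20794925-20794974 and that for Mki67 at chr7:142884939-142884988, all on the minus strand. No source used here names the genome build of these positions.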

How the data were processed

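The members and the further gene lists were chosen with earlier results of these data known, and the named genes by the rule of smallest p within each list. GenomeStudio and limma are named in the submitters' processing notes, without versions. The deposited normalized values are on a log2 scale with one distribution over the 12 arrays. They were within 0.0197 of limma's neqc (offset 16) run here on the deposited intensity values, which are bead means on a linear scale. The authors' detection score is headed as a p-value but rises with intensity, so it was read as 1 minus the p-value. Each gene was represented by its passing probe of highest mean. A group-means model over all 12 arrays was fitted with limma 3.58.1 (R 4.3.3), with 8 residual degrees of freedom, and p-values were adjusted by Benjamini-Hochberg over 11743 genes (threshold 0.05). The fit was tested on simulated data in which a gene had the same spread on all 12 arrays, unlike the real data, where 1 array stood apart. In the simulated data the fit missed nearly all changes of 0.5 log2 units and many of 1. Some of the genes it called there were false calls. A gene not called here may therefore still differ. The number of arrays limits the precision: the median 95% interval of a member reached 0.39 (replication) and 0.40 (mitosis) on each side of the change in Casp9 KO. Alternatives changed the arrays, normalization, background correction, filter, probes, weights and replicate block. The alternative of leaving out probes with the authors' filter mark was added after seeing the data.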

Additional observations from a re-analysis of the deposited data

Results flagged for a closer look

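The knockout effects on E2f2 differed in the fit over all 12 arrays. With 1 array left out in turn, the limma call held in 2 of the 12 fits. It was also lost with no detection filter (adjusted p = 0.0553). The Bak/Bax DKO effect was -0.86 and the Casp9 KO effect 0.42, and the limma contrast of the effects was -1.28 (adjusted p = 0.0406, or 0.149 with the replicate number as a block). All 3 Bak/Bax DKO arrays were below their controls and all 3 Casp9 KO arrays above theirs. The wild-type groups differed by 1.91, and experiment and beadchip cannot be told apart there.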

How the results depend on the processing

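No result changed sign as a called value. With the replicate number as a replicate block, limma called 109 genes in Casp9 KO, 130 in Bak/Bax DKO and 77 in the difference of effects, and none of the 37 replication and mitosis genes; the calls on E2f2 were lost (adjusted p = 0.169 and 0.149). Deviations of same-numbered arrays correlated at 0.24, -0.06 and 0.09 in experiment 1 and at 0.10, 0.06 and 0.04 in experiment 2. Those of differently numbered arrays correlated at -0.19 to 0.13 and at -0.07 to 0.00. Whether a shared number marks a shared day or litter cannot be told from these values. With only the 6 arrays of a comparison 566, 16 and, between wild types, 2668 of 11743 genes were called. The last held 6 of the 37 members (Bub1b, Ccna2, Ccne1, Melk, Tk1 and Ttk). Array weights gave 936 of 11743 genes in Casp9 KO, 575 in Bak/Bax DKO, 933 for the difference and 3210 between wild types. Of the 37 members 1 was called in Casp9 KO (Ccne1) and 6 between wild types (Bub1b, Ccne1, Mcm3, Mcm7, Tk1 and Ttk). Array weights gave medians of 0.062 (replication) and -0.079 (mitosis) in Bak/Bax DKO and of 0.21 and -0.027 in the difference. Median-centring gave 0.042 and -0.023 in Bak/Bax DKO and 0.17 for replication in the difference. Averaged probes gave 0.066 and -0.046 in Bak/Bax DKO, 0.25 for replication in the difference, and -0.080 for replication between wild types. In that last comparison 1 member (Top2a) was called, where 953 of 11743 genes were. Detection on all 12 arrays called 1 member between wild types (Melk), where 774 of 8677 genes were called. Leaving out marked probes gave 0.14 for replication in Bak/Bax DKO. Values were also normalized anew over the 11 arrays without Bak/Bax DKO replicate 2. Of 11743 genes, 667, 485, 840 and 2332 were then called in the order Casp9 KO, Bak/Bax DKO, difference and wild types. Of the 37 members 1 (Ccne1) was called in the first and 3 in the last. The medians were then 0.055 and -0.12 in Bak/Bax DKO and 0.23 and -0.031 in the difference. The cause of these shifts was not tested.

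Leaving out each array in turn gave 86 to 678 genes and 0 to 1 members in Casp9 KO, with medians of -0.15 to -0.11 (replication) and -0.10 to -0.05 (mitosis). In Bak/Bax DKO it gave 95 to 495 genes, 0 to 1 members and medians of 0.054 to 0.27 and -0.12 to 0.17. In the difference of effects it gave 94 to 852 genes, 0 members each time (limma, 4 at an unadjusted p under 0.05 with all arrays), and medians of 0.23 to 0.46 and -0.031 to 0.28. Between wild types it gave 321 to 2337 genes, 0 to 3 members and medians of -0.02 to 0.07 and -0.11 to -0.05. The highest counts came without Bak/Bax DKO replicate 2. Ccne1 in Casp9 KO passed the test without that array only, with adjusted p from 0.0357 to 0.730 over the 12, and with array weights (0.0103).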
